A study of Gallus gallus with 4 samples.

Results

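WNT antagonists were followed as a family of 10 genes (DRAXIN, FRZB, DKK2, DKK3, SFRP1, SFRP2, WIF1, APCDD1, SOSTDC1 and NOTUM), taken by name from a table of 15386 genes, and all 10 were found. The tissue was the dermal papilla complex, dissected from growing dorsal feathers of untreated White Leghorn chickens. Papilla tissue of the anterior side was compared with that of the posterior side, with 2 RNA-seq libraries each and 4 in all, to see which transcripts differ across the papilla. Age, sex and the number of birds are not given in the labels, which also do not say that libraries came from separate birds, so p-values measure the spread between these libraries, which may be technical.

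The dermal papilla is a mesenchymal cluster at the feather base that signals to the surrounding epithelium. WNT proteins are secreted, lipid-modified signals that bind Frizzled receptors with the co-receptors LRP5 and LRP6 and stabilise beta-catenin, and a WNT gradient across the follicle base is known to take part in turning a radial feather into a bilaterally symmetric one. Antagonists limit this signal at different steps. FRZB, SFRP1 and SFRP2 are secreted proteins with a Frizzled-like domain that bind WNT, and WIF1 also binds WNT. DKK2 and SOSTDC1 act on LRP5 and LRP6, and DRAXIN, known from axon guidance, also binds LRP6. NOTUM is an enzyme that strips the lipid from WNT, and APCDD1 is a membrane glycoprotein that binds WNT and LRP5. DKK3 is a divergent dickkopf protein whose place in the pathway is less clear.

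Values are RPKM, read numbers scaled to gene length and to the mapped reads of the library, so levels can be set side by side between genes. Where a side has a pair of values, library 1 comes first. Read totals are unknown. The steps between low values placed the depth of anterior library 2 at 99.9% of that of anterior library 1, posterior library 1 at 77.0% and posterior library 2 at 99.6%. Posterior library 1 stood apart from the other 3. Summed over the 8 smooth muscle markers found, it held 4143 RPKM against 265 to 344 RPKM elsewhere. Of the papilla markers found, all but NOG were above 0 in every library, but the sum over all 16 was 149 RPKM in posterior library 1, compared with 291 to 346 RPKM elsewhere. Of these markers, SOX2 did not exceed 0.163 RPKM and NOG did not exceed 0.579 RPKM in any library. The tissue also held epithelium, with 12 of 12 markers detected and sums of 1569 to 4284 RPKM, the highest in anterior library 1. In bulk tissue, fewer cells of a type and less RNA per cell cannot be told apart. Results are given below with and without posterior library 1.

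By mean level, FRZB and SOSTDC1 dominated the family. FRZB ranked first in 3 libraries and second, after SOSTDC1, in anterior library 2. Its mean over the 4 libraries was 98.5 RPKM, above the mean of 97.0% of all genes, with a range of 71.7 to 122 RPKM. SOSTDC1 followed at 76.2 RPKM, with a range of 62.8 to 83.9 RPKM. Together they made up 46.5% and 39.7% of the summed RPKM of the family in anterior libraries 1 and 2, and 61.5% and 44.95% in posterior libraries 1 and 2.

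A middle group held SFRP1 at a mean of 44.8 RPKM, DKK3 at 43.5 RPKM and APCDD1 at 39.7 RPKM. WIF1 (16.1 RPKM), NOTUM (15.7 RPKM), SFRP2 (15.2 RPKM) and DRAXIN (13.8 RPKM) formed a lower group, and DKK2 had the lowest mean at 5.20 RPKM. In posterior library 1, however, DRAXIN (2.41 RPKM) and NOTUM (3.64 RPKM) lay below DKK2 (4.17 RPKM). Ranges over libraries overlapped for all 9 pairs of neighbours in this order, so the groups describe means only. Taken library by library, APCDD1 lay above WIF1 in each, but only at 17.05 against 16.96 RPKM in posterior library 1. All other neighbours changed order between libraries. All 10 genes were detected in every library, and 6 exceeded 10 RPKM in each. The summed level was 363 and 393 RPKM in the anterior pair and 309 and 411 RPKM in the posterior pair, so the sum of the family overlapped between the sides.

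**Figure D1:**
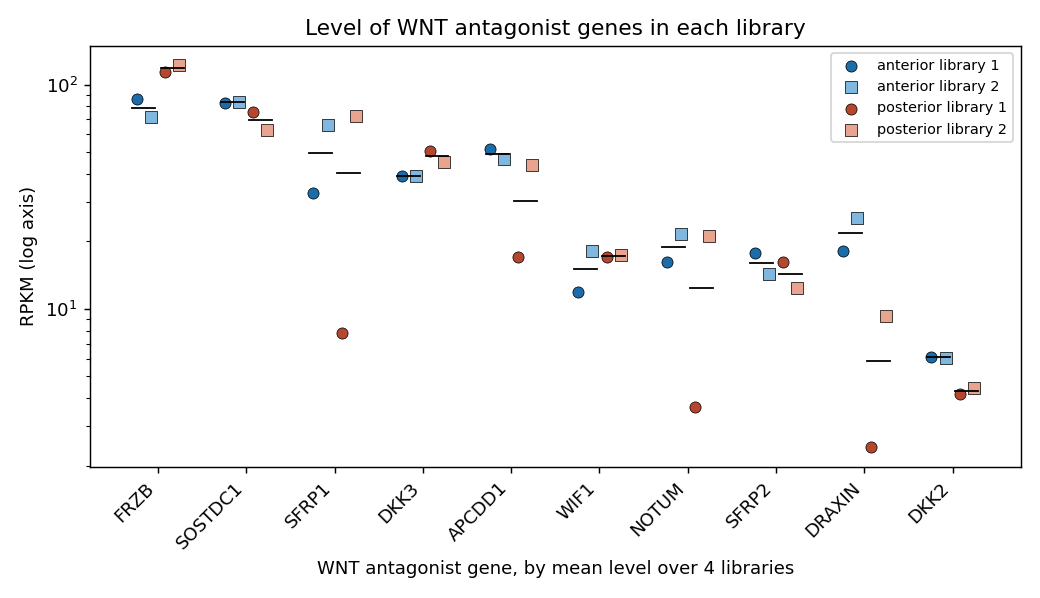
RPKM (log axis) of the 10 WNT antagonist genes, ordered by mean level, with 1 point per library and a bar at the mean of each side (n = 2). FRZB and SOSTDC1 have the highest means over the 4 libraries. Posterior library 1 is the low point for SFRP1, APCDD1, NOTUM and DRAXIN, and by a small gap for DKK2.

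**Figure D2:**
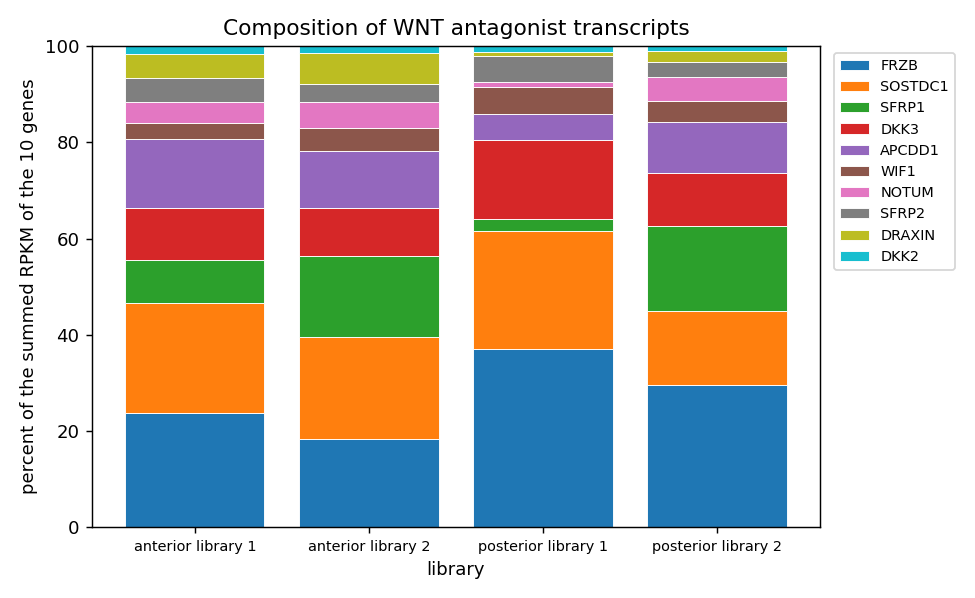
Share of each gene in the summed RPKM of the 10 antagonists, in percent, with 1 bar per library. FRZB takes 23.8% and 18.3% in the anterior and 37.0% and 29.7% in the posterior libraries, and DRAXIN 4.998% and 6.46% in the anterior and 0.782% and 2.26% in the posterior libraries.

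The members did not point one way. Both anterior libraries lay above both posterior libraries for 4 of 10 members (DRAXIN, APCDD1, DKK2 and SOSTDC1), against 18.9% of all tested genes. The opposite order held for 2 of 10 (FRZB and DKK3), against 7.25% of all tested genes. The members and lists were chosen with earlier results of these data known. These counts, and those of lists below, are therefore not read as an excess over all tested genes. The sides overlapped for SFRP1, NOTUM, WIF1 and SFRP2. None of the 10 passed limma's test over the 10939 genes tested (adjusted p = 0.964 for 9 members and 0.967 for SFRP2), where 0% of genes passed. At an unadjusted p under 0.05 there was 1 member, DRAXIN, and 103 genes in all, or 0.942%. An exact permutation test of 2 libraries against 2 cannot give a two-sided p below 0.333. With posterior library 1 as the only posterior library, the log2 differences were 2.72 for DRAXIN, 2.08 for NOTUM and 1.47 for APCDD1. Without posterior library 1 they were 1.12, -0.17 and 0.16. With 1 posterior value, a gene's own spread comes from the anterior pair alone, and limma combines it with that of genes of like level. Calls from these fits are therefore not read. The differences below are descriptions with their error.

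Among the members higher in anterior libraries, DRAXIN differed most. Its level was 18.1 and 25.4 RPKM in the anterior pair and 2.41 and 9.31 RPKM in the posterior pair. Even the higher posterior library lay below the lower anterior library. The means were 21.7 ± 5.13 RPKM (SD, n = 2) and 5.86 ± 4.88 RPKM (n = 2), a ratio of 3.71. The log2 difference of RPKM + 1, anterior minus posterior, was 1.92 with a standard error of 0.55 (limma, unadjusted p = 0.0151). Without posterior library 1 it was 1.12, with a ratio of the anterior mean to posterior library 2 of 2.33. Among papilla markers, 5 of the 14 tested also had both anterior libraries above, against 18.9% of all tested genes. The opposite order held for 0 of them, against 7.25% of all tested genes. Some melanocyte markers had the order of DRAXIN as well. The sum over the 9 melanocyte markers found was 42.7 and 45.8 RPKM in the anterior pair and 21.7 and 34.1 RPKM in the posterior pair. Differences were positive for 7 of the 7 tested, against 64.6% of all tested genes. Without posterior library 1 they were positive for 5, and the share of all tested genes is not given for that fit. Both anterior libraries were above for 3 (PMEL, TYRP1 and MLANA), against 18.9% of all tested genes. The same 3 had an unadjusted limma p under 0.05, against 0.942% of all tested genes. MITF, KIT, EDNRB2 and SOX10 overlapped between the sides. MITF, listed as CMI9 and the most abundant, was at 15.9 and 18.1 RPKM against 13.7 and 19.6 RPKM. DCT and TYR peaked at 0.29 and 0.58 RPKM and were below the filter. No melanocyte marker was at 0 in any library. The part of melanocyte or papilla markers in the DRAXIN difference was not tested.

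APCDD1 measured 51.6 and 46.4 RPKM in the anterior pair against 17.1 and 43.8 RPKM in the posterior pair. The sides did not overlap, but posterior library 2 was close to the anterior values and posterior library 1 was low. The log2 difference was 0.81 with a standard error of 0.46 (limma, unadjusted p = 0.130), and 0.16 without posterior library 1.

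DKK2 was the tightest of the anterior-higher members. It stood at 6.11 and 6.06 RPKM in the anterior pair and at 4.17 and 4.45 RPKM in the posterior pair. Here the posterior libraries were alike, differing by 1.07-fold, and posterior library 1 did not stand apart. The means were 6.09 ± 0.0304 and 4.31 ± 0.196 RPKM (SD, n = 2 each), a ratio of 1.41. The log2 difference was 0.42 with a standard error of 0.24, which limma draws from genes of like level and which is wider than the spread of DKK2 itself. It was 0.38 without posterior library 1. SOSTDC1, which also binds BMP proteins, was at 82.5 and 83.9 RPKM in the anterior pair and 75.8 and 62.8 RPKM in the posterior pair. The sides overlapped after median ratio scaling, which left 3 members with both anterior libraries above. Its lowest value was in posterior library 2, unlike that of the other 3 genes of this group. The log2 difference of 0.27 was about as large as its standard error of 0.24. It was 0.40 without posterior library 1 and 0.13 without posterior library 2.

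FRZB and DKK3 had the opposite order. In posterior libraries 1 and 2, FRZB reached 114 and 122 RPKM, against 86.2 and 71.7 RPKM in anterior libraries 1 and 2. The posterior libraries were within 1.07-fold of each other and both were above the anterior pair. The means were 79.0 ± 10.2 RPKM on the anterior and 118 ± 5.72 RPKM on the posterior side (SD, n = 2 each), a posterior to anterior ratio of 1.495. The log2 difference was -0.58 with a standard error of 0.24 (limma, unadjusted p = 0.0571), and -0.63 without posterior library 1. For DKK3 the values were 39.25 and 39.23 RPKM in the anterior pair and 50.5 and 45.2 RPKM in the posterior pair. The anterior libraries were nearly equal and both posterior libraries lay above them, by a ratio of means of 1.22. The log2 difference was -0.28 with a standard error of 0.23, and -0.20 without posterior library 1.

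SFRP1 varied most within a side. It measured 32.9 and 65.9 RPKM in the anterior pair and 7.81 and 72.7 RPKM in the posterior pair. The posterior libraries held both the lowest and the highest value and differed by 9.31-fold. The log2 difference of 0.90 had a standard error of 0.99. It was -0.63 without posterior library 1 and 2.43 without posterior library 2, so its direction rested on posterior library 1. NOTUM showed the same dependence, at 16.2 and 21.6 RPKM in the anterior pair and 3.64 and 21.2 RPKM in the posterior pair. Posterior library 2 lay within the anterior range. The log2 difference was 0.96 with a standard error of 0.73. It was -0.17 without posterior library 1 and 2.08 without posterior library 2.

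For WIF1 and SFRP2 the difference between the sides was smaller than its standard error. WIF1 was at 11.9 and 18.1 RPKM in the anterior pair and 17.0 and 17.4 RPKM in the posterior pair, so the widest gap was between the anterior libraries. Its log2 difference was -0.21 with a standard error of 0.29, and 0.075 without anterior library 1. SFRP2 was at 17.7 and 14.2 RPKM against 16.2 and 12.4 RPKM, and library 1 was the higher within each side. Its log2 difference was 0.15 with a standard error of 0.27. It was 0.33 without posterior library 1, -0.029 without posterior library 2 and 0.0021 without anterior library 1.

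**Figure D3:**
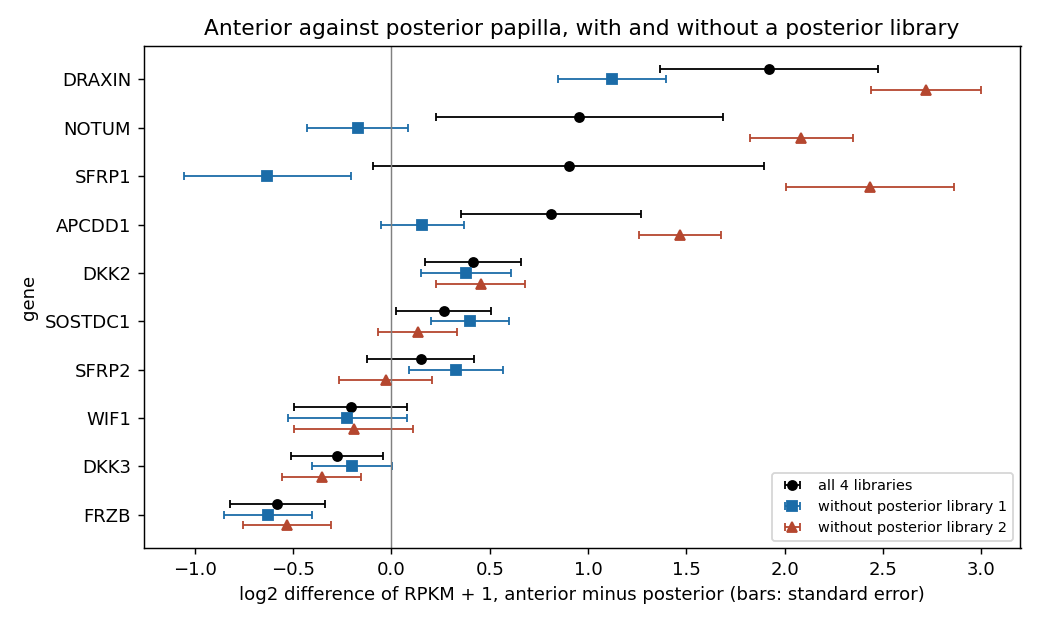
Log2 difference of RPKM + 1, anterior minus posterior, for each antagonist from all 4 libraries, without posterior library 1 and without posterior library 2, with bars for the limma standard error. FRZB and DKK3 stay below 0 and DRAXIN, DKK2, APCDD1 and SOSTDC1 above 0 in each, while SFRP1 and NOTUM are below 0 only without posterior library 1.

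The genes that were low in posterior library 1 were only part of the family. In 4 of 10 members (DRAXIN, SFRP1, NOTUM and APCDD1) that library was at least 2-fold below the lowest of the other 3, as was the case for 10% of all tested genes. The gap to the lowest other library was 4.44-fold for NOTUM, 4.22-fold for SFRP1, 3.86-fold for DRAXIN and 2.57-fold for APCDD1. DKK2 was also lowest there, but only at 4.17 RPKM against 4.45 RPKM in posterior library 2. FRZB, SOSTDC1, DKK3, WIF1 and SFRP2 were not lowest in posterior library 1, and FRZB and DKK3 exceeded both anterior libraries in it. In posterior library 1, 7 of 8 smooth muscle markers were at least 2-fold above every other library. MYH11, a muscle myosin, was at 1222 RPKM there against 16.8 to 50.5 RPKM. Of the papilla markers, 6 of the 14 tested were at least 2-fold below every other library there and 1 was at least 2-fold above. That marker was FGF7, a growth factor gene, at 18.9 RPKM against 4.92 to 6.11 RPKM. The share of all tested genes at least 2-fold above in that library is not given, so the counts above are descriptions only. Values at least 2-fold below every other library were also seen for 7 of 15 tested ligands and R-spondins and 5 of 18 receptors. The ligand list is not separate from the papilla list. Both hold WNT5A and RSPO3, and WNT5A was counted as low in each. Whether the low values were particular to papilla genes was not tested. The count was 4 of 10 for endothelial markers and 0 of 12 for epithelial markers. The endothelial sum was 179 RPKM there against 159 to 165 RPKM. Among the 7 fibroblast markers found, with a sum of 3466 RPKM there against 2205 to 2744 RPKM, members went both ways. DCN, a matrix proteoglycan, measured 1561 RPKM in that library against 492 to 749 RPKM, and the collagen gene COL3A1 111 RPKM against 399 to 630 RPKM. The part of these differences in the antagonist values was not tested. Without posterior library 1, the log2 differences of DRAXIN, APCDD1, NOTUM and SFRP1 moved by more than their standard errors. Those of FRZB, DKK3, DKK2, SOSTDC1, WIF1 and SFRP2 moved by less. The shift is set by the gap between the posterior libraries, so this split restates that gap and is no further result.

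**Figure D4:**
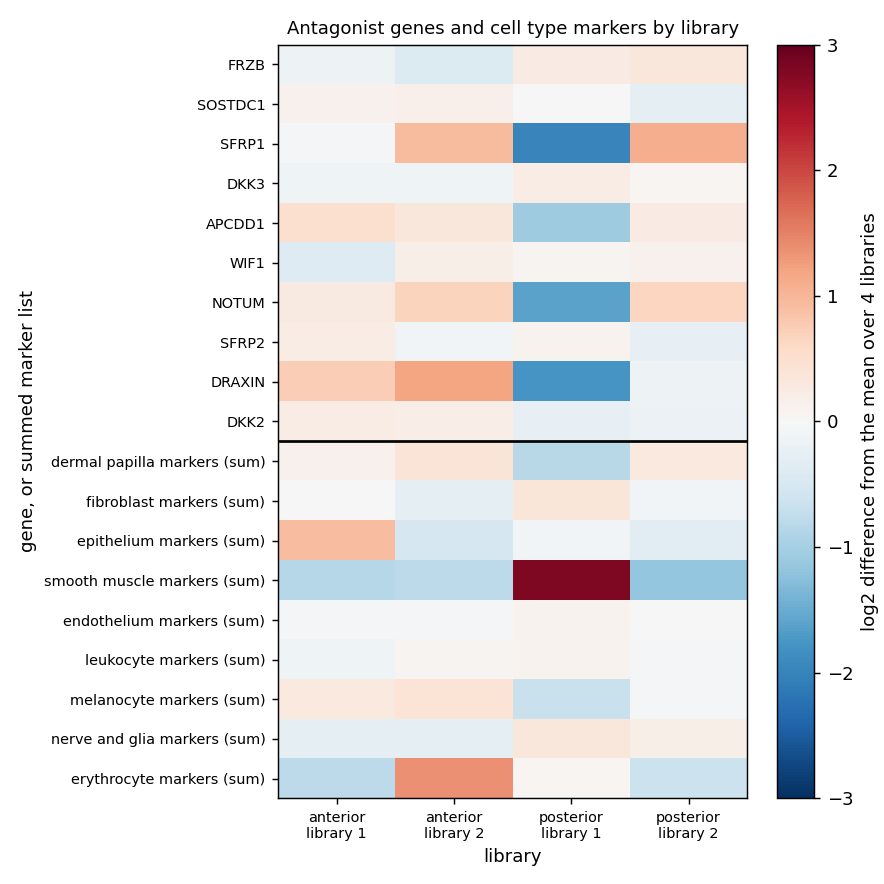
Difference of each library from the mean over the 4 libraries on a log2 scale, for the 10 antagonists (RPKM + 1, upper rows) and for summed RPKM of cell type marker lists (lower rows). Posterior library 1 is low for SFRP1, DRAXIN, NOTUM and APCDD1 and for papilla markers, and high for smooth muscle markers.

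Ratios between antagonists within a library do not depend on scaling between libraries. The ratio of FRZB to DRAXIN was 4.76 and 2.83 in the anterior pair and 47.3 and 13.1 in the posterior pair. Since these genes have opposite orders between the sides, their ratio separates the sides by construction and gives a size only, as do the ratios of FRZB to SOSTDC1 and of DKK3 to DKK2. FRZB to SOSTDC1, the leading pair by mean, was 1.05 and 0.855 in the anterior pair and 1.51 and 1.94 in the posterior pair. Within the dickkopf family, DKK3 to DKK2 was 6.43 and 6.47 against 12.1 and 10.2. In contrast, the ratio of SFRP1 to SFRP2 was 1.86 and 4.62 against 0.482 and 5.84, and overlapped. FRZB to SFRP1 was 2.62 and 1.09 against 14.6 and 1.68, which also overlapped.

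Between libraries, scaling had a measurable effect. Over all tested genes, the log2 difference had a median of 0.11 in the deposited values and of -0.0057 once libraries were scaled by median ratios. Relative to that median, the differences were 1.81 for DRAXIN, 0.70 for APCDD1, 0.30 for DKK2, 0.15 for SOSTDC1, -0.69 for FRZB and -0.39 for DKK3. SFRP2 was at 0.04. The median over the 10 members was 0.34, with 7 members above 0, where 64.6% of all tested genes were above 0. Without posterior library 1 the median was -0.0063, with 5 members above 0, and the median over all genes was 0.023. The share of all tested genes above 0 is not given without that library.

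Other inhibitors of the pathway, from a fixed list, were found for 18 of 26 names, and 13 were tested. None passed over all genes (limma). SFRP4, a further Frizzled-related WNT binder, had the order of FRZB, at 37.0 and 22.8 RPKM in the anterior pair and 53.3 and 64.1 RPKM in the posterior pair. Its log2 difference was -0.98 with a standard error of 0.32 (limma, unadjusted p = 0.0231), and -1.11 without posterior library 1. Both anterior libraries were higher for 5 of the 13, where 18.9% of all tested genes had this order. Among the 5 was AXIN2, an intracellular feedback inhibitor induced by beta-catenin, at 12.04 and 14.8 RPKM against 6.24 and 11.1 RPKM. TPBG, a membrane inhibitor of WNT signalling, was at 5.61 and 3.88 RPKM against 1.55 and 3.34 RPKM, and LRP4, a receptor that binds SOSTDC1, at 2.45 and 2.15 RPKM against 0.582 and 1.72 RPKM. Their log2 differences were smaller without posterior library 1, at 0.25 for AXIN2, 0.39 for TPBG and 0.28 for LRP4. IGFBP4, which binds growth factors and can also block WNT co-receptors, was the most abundant of this list, with 79.0 to 166 RPKM and overlapping sides. KREMEN1, a dickkopf receptor, was at 32.2 RPKM in anterior library 1 and at 14.2 to 16.7 RPKM in the others.

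Of the other pathway lists, no gene passed over all genes in either direction (limma). Their shares above 0 from all 4 libraries are to be read beside the 64.6% of all tested genes. Without posterior library 1 that share is not given, and the median over all tested genes was 0.023. Among 15 tested ligands and R-spondins, which amplify WNT signals, 12 were above 0 and the median log2 difference was 0.44. Without posterior library 1 the median was 0.0035, with 8 above 0. The most abundant ligands were WNT5A, WNT4 and WNT11. WNT4 stood at 34.7 and 37.8 RPKM in the anterior pair and 31.1 and 50.2 RPKM in the posterior pair, with overlapping sides. WNT11 was higher in both anterior libraries, at 56.1 and 28.2 RPKM against 24.6 and 24.3 RPKM, and posterior library 1 did not stand apart for it. WNT7A was at 1.59 and 1.14 RPKM against 0.111 and 0.741 RPKM. WNT2B had the smallest p of the ligands (limma, unadjusted p = 0.00488), with a log2 difference of 1.48 and a standard error of 0.33. Its difference was 1.17 without posterior library 1, and neither posterior library exceeded 0.632 RPKM. WNT6 was at 0.46 without that library, from 1.59, and WNT5A at 0.0070, from 0.98. The sum over the 15 WNT ligands found was 210 and 183 RPKM in the anterior pair and 89.2 and 185 RPKM in the posterior pair. The sum of the 10 antagonists therefore exceeded this ligand sum in every library. The ratio was 1.72 and 2.14 in the anterior pair and 3.46 and 2.22 in the posterior pair. It depends on which genes each list holds, and inhibitors such as SFRP4 and IGFBP4 are not in it. The highest ratio was in posterior library 1, where the ligand sum was lowest.

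Receptors and secretion genes were above 0 for 14 of 18 tested, with a median of 0.26, or 0.08 without posterior library 1. LGR6, a receptor for R-spondins, had the smallest p of this list (limma, unadjusted p = 0.0423). Its log2 difference was 0.89 with a standard error of 0.34, and 1.20 without posterior library 1, whose value was above that of posterior library 2. The receptor gene FZD10 was at 14.3 and 7.16 RPKM in the anterior pair and 2.36 and 6.68 RPKM in the posterior pair, and FZD7 at 12.9 and 11.6 RPKM against 4.63 and 10.2 RPKM. WLS, the carrier that brings WNT to the cell surface, was at 119 and 64.5 RPKM against 32.2 and 72.2 RPKM, with overlapping sides. The co-receptor genes PTK7 (15.3 to 65.4 RPKM) and RYK (21.4 to 30.3 RPKM) overlapped as well. Transducers and targets were above 0 for 15 of 17 tested, with a median of 0.40, or 0.05 without posterior library 1. Beta-catenin itself, CTNNB1, was at 397 and 332 RPKM against 216 and 330 RPKM, so posterior library 2 was just below the anterior libraries. The kinase gene GSK3B was at 20.3 and 17.6 RPKM against 10.1 and 16.7 RPKM. The transcription factor gene LEF1, listed as LEF-1, had a log2 difference of 1.10, and 0.27 without posterior library 1. TCF7L1 (1.75 to 5.38 RPKM), of the same factor family, and the kinase gene CSNK1A1 (49.6 to 99.1 RPKM) overlapped between the sides.

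**Figure D5:**
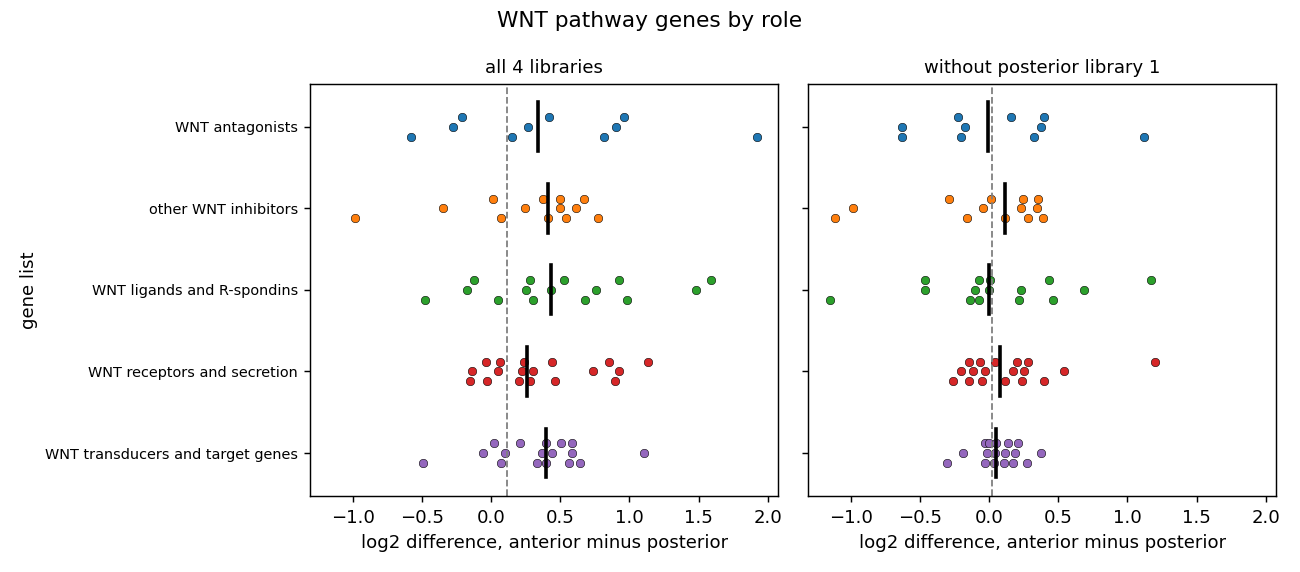
Log2 difference of RPKM + 1, anterior minus posterior, of each tested gene in 5 lists of the WNT pathway, from all 4 libraries (left) and without posterior library 1 (right). Black bars are list medians and the dashed line is the median of all tested genes, 0.11 on the left and 0.023 on the right.

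Genes with the most similar profile were taken for DRAXIN and FRZB by distance between log2 values of RPKM + 1, centred on each gene's mean over the 4 libraries. On this scale, falls to values under 1 RPKM are shortened. For DRAXIN they included PMEL, which encodes a melanosome protein, at a distance of 0.15, and CTNNA2, an alpha-catenin gene, at 0.16. In posterior library 1, PMEL was at 0.577 RPKM and CTNNA2 at 3.12 RPKM. The nearest antagonist to DRAXIN was NOTUM, farther away at 1.07. For FRZB the nearest genes were THSD7A at 0.14, ATP9A at 0.18 and HTRA1, a secreted serine protease gene, at 0.19. THSD7A (0.909 to 2.01 RPKM) and ATP9A (1.10 to 2.45 RPKM) were low in all libraries. HTRA1 was abundant, at 209 and 178 RPKM in the anterior pair and 238 and 292 RPKM in the posterior pair. The nearest antagonist to FRZB was DKK3, at 0.40. With 4 libraries these distances describe these samples only.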

How the data were processed

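RNA from dissected papilla complexes was extracted with Trizol, and libraries were made with an Illumina TruSeq kit, per the labels' protocols. The authors deposited RPKM per gene, in a table named for Ensembl release 78. TopHat2, Partek and galGal4 are named in the submitters' processing notes. The counting step and strand use are not given in the sources used here, nor are read totals. Relative depth was read from the most common ratio between values under 0.3 RPKM.

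Genes reaching 1 RPKM in 2 or more libraries (10939 of 15386, all 10 members included) were compared as log2(RPKM + 1) with limma 3.58.1 in R 4.3.3 (lmFit, eBayes with trend, two-sided, Benjamini-Hochberg over all genes, threshold 0.05, 2 residual degrees of freedom). Fold changes on this scale understate those of low genes. The fit was tested on simulated data. The members and lists were chosen with earlier results of these data known. List genes were matched by name or by a unique synonym in a RefSeq gene table of assembly GRCg7b, used for names only. Named genes were all members and, per pathway list, up to 4 of smallest p and 3 of highest mean. Marker lists took 2 of highest mean. The 3 genes most like DRAXIN and FRZB were also taken, of which 1 is not reported here. SOX2, NOG, COL3A1, FGF7, TYRP1, MLANA, KIT, EDNRB2, SOX10, DCT and TYR were named with their values known. As alternatives, each library was left out, libraries were scaled by median ratios or by quantile normalization, pseudocounts of 0.1 and 0.5 were used, the filter was dropped or set to 5 RPKM, eBayes was run robustly or without trend, and a library block was added. Python 3.11.15 and matplotlib 3.10.9 drew the plots.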

Additional observations from a re-analysis of the deposited data

How the results depend on the processing

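Under 13 alternatives each, the directions of DRAXIN, APCDD1, DKK2, SOSTDC1, FRZB and DKK3 did not turn. Most of these settings could not have turned them. Their sides do not overlap, so leaving out a library or changing the pseudocount keeps the direction. The filter, eBayes and block settings leave the difference itself unchanged. Only median ratio scaling and quantile normalization could have turned a direction, and neither did. The other 4 members turned only when a library was left out. Leaving out each library in turn gave log2 differences of -0.63 to 2.43 for SFRP1, -0.17 to 2.08 for NOTUM, -0.029 to 0.33 for SFRP2 and -0.49 to 0.075 for WIF1. The same runs gave 0 to 226 genes and 0 to 3 members past the threshold, and a median of the members of -0.0063 to 0.36. The upper counts came without posterior library 2, where posterior library 1 is the only posterior value and is assumed to vary like the anterior libraries. The members counted there were DRAXIN, NOTUM and APCDD1, with log2 differences of 2.72, 2.08 and 1.47. All of them were at least 2-fold lower in posterior library 1 than in every other library. Calls from fits with a single posterior value are not read, and the cause of these differences was not tested. The numbers 1 and 2 come from the column names, and no label ties them across sides. Differences between the numbered libraries correlated at 0.488 across genes. With a replicate block, 2 genes and 0 members passed (DRAXIN adjusted p = 0.185), with 1 residual degree of freedom. The share of FRZB was 18.3% to 23.8% and 29.7% to 37.0% in single anterior and posterior libraries. Members with both anterior libraries above numbered 5 to 6, and with both posterior above 2 to 3, when a library was left out and a side had a single value. Leaving out a library can only keep or raise these counts, so the rise is not read. Median ratio scaling of all libraries gave 3 and 2. Shares over all tested genes are not given for these settings, so these counts stand as descriptions only. Read totals are unknown, so no counting error is given.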

Other observations

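Within both sides, 6 of 10 antagonists differed in the same direction between libraries 1 and 2, against 63.8% of all tested genes. DRAXIN, SFRP1, WIF1 and NOTUM were higher in library 2 of each side, and SFRP2 and DKK3 were higher in library 1. Anterior library 1 held the most epithelial transcripts, with the keratin genes KRT14 at 1077 RPKM and KRT6A at 1202 RPKM, against 369 to 494 RPKM and 348 to 421 RPKM in the others. Anterior library 2 held the most globin transcripts, with HBAA at 548 RPKM against 129 to 227 RPKM.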
